A study of Homo sapiens with 12 samples.

Results

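The genes described are 4 CDC-like kinases (CLK1, CLK2, CLK3 and CLK4) and 6 serine/arginine-rich splicing factors (SRSF1, SRSF2, SRSF3, SRSF5, SRSF6 and SRSF7), chosen by symbol as 10 of the 54628 genes in a count table. The table came from RNA-seq of HUDEP-2 cells, an immortalised line of human erythroid precursors from umbilical cord blood that needs Kit receptor signalling to survive and divide. The cells had been infected with a lentivirus carrying dCas9-KRAB, a CRISPR interference repressor, and either a scrambled guide (sgControl) or a guide to an element upstream of EGR1 (sgEGR1), and were sorted for GFP. All cells were expanded with SCF (stem cell factor, the ligand of Kit), EPO, dexamethasone and doxycycline, deprived of growth factors for 5 h, and then given PBS or 50 ng/mL SCF for 1 h. This gave 4 groups, sgControl PBS, sgControl SCF, sgEGR1 PBS and sgEGR1 SCF, with 3 libraries each.

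SR proteins bind exonic sequences of pre-mRNA through RNA recognition motifs and recruit the spliceosome through a domain rich in arginine and serine. CLK kinases, which are nuclear, and SRPK kinases, which are mostly cytoplasmic, phosphorylate that domain and so set where SR proteins reside and whether they act in splicing. Transcripts of both families are themselves subject to alternative splicing that can retain introns or include poison exons, and a gene-level count does not separate such isoforms from coding ones.

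Libraries held 23.5 to 32.0 megacounts of estimated counts, and expression is given as CPM, counts per megacount after TMM scaling of library totals. Of 14 erythroid markers, 13 were above 3 counts in every library and their sum ran from 26860 to 32140 CPM, whereas the summed T cell, B cell and myeloid markers did not exceed 0.157, 0.440 and 0.719 CPM. The 3 megakaryocyte markers summed to 12.01 to 35.16 CPM, all from ITGA2B with PF4 and GP9 at 0 counts, and the 3 epithelial markers to 138 to 172 CPM, nearly all from EPCAM, and the ranges of both sums overlapped among the 4 groups. EGR1 itself was at 10.9, 5.99 and 7.45 CPM in sgControl PBS, 208, 239 and 171 CPM in sgControl SCF, 2.04, 1.12 and 0.98 CPM in sgEGR1 PBS, and 40.4, 57.4 and 204 CPM in sgEGR1 SCF (replicates 1, 2 and 3). The library labelled sgEGR1 SCF replicate 3 therefore lay within the sgControl SCF range and went against its label. Replicate 1 of the groups also stood apart, since a term for it was called for 26.6% of all genes tested. Calls of members from the model of 4 group means that rest on these libraries are given with and without them. SCF responses fitted with a term for replicate 1, or for each replicate number, are given with all 12 libraries only. The same holds for mean levels, same-numbered pairs, correlations and the splicing lists.

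A gene was called where the quasi-likelihood test of edgeR gave an adjusted p (Benjamini-Hochberg) below 0.05 over the 15492 genes that passed a filter on low counts. The filter kept 9 of the 10 members, all but CLK2. With 3 libraries against 3, an exact two-sided permutation test of a single gene could not fall below 0.1, so calls come from the model across all genes. In RNA from bulk cultures, fewer cells of a type and less RNA per cell cannot be told apart.

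CLK1 and SRSF7 are the member of each family with the largest SCF difference, and their promoters are shown to place the motifs discussed below. Each window runs from 250 bases before to 50 bases after a RefSeq transcription start, 5′ to 3′ on the gene's strand (minus for both), and capitals mark every motif found among those searched. The windows are chr2:200864609-200864908 for CLK1 and chr2:38751312-38751611 for SRSF7 (GRCh38.p14).
CLK1: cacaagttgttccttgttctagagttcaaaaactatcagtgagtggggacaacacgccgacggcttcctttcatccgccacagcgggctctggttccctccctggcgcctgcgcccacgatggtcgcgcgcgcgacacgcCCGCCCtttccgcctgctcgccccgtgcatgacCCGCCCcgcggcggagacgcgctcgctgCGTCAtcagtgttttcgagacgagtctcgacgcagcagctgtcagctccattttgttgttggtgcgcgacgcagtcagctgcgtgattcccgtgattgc
SRSF7: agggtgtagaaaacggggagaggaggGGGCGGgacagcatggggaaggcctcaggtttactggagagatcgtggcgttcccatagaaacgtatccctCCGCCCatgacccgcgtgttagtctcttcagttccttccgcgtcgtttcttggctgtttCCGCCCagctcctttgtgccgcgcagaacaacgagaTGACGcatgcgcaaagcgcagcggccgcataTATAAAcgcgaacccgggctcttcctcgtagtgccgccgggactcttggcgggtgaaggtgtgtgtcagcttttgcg

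RefSeq promoter windows matched 9 of the 10 members, with 12 windows in all because CLK1, CLK3 and SRSF7 have more than 1 start, and none was found for SRSF2. Motifs were searched on both strands. The EGR1 site GCGTGGGCG, its variant GCGGGGGCG, the AP-1 site TGANTCA, the cyclic AMP response element TGACGTCA and the CArG box bound by serum response factor were found in 0 of the 12 windows. Among all 35116 promoter windows of the table they were found in 0.795%, 5.07%, 7.71%, 1.85% and 1.29%. An ETS site, CCGGAAGT, present in 4.14% of all windows, was found only in SRSF5, where it began 57 bases before the start. The shorter motif TGACG, which lies within the cyclic AMP response element, was present in 8 of the 12 windows and in 24.6% of all windows. These came from 7 of the 9 genes (CLK1, CLK3, CLK4, SRSF1, SRSF3, SRSF5 and SRSF7). The GC box GGGCGG was present in 8 of the 12 windows, from 6 of the 9 genes, and in 45.0% of all windows. CCAAT was present in 2 of the 12 windows (CLK3 and SRSF3) and in 34.6%, and the TATA box TATAAA in 2 (SRSF3 and SRSF7) and in 11.5%. The windows of CLK1 overlap each other, as do those of SRSF7, and can share a site. Member windows held 55.0% to 77.3% GC, beside a median of 58.7% among all windows, and the shares were not adjusted for this. In the windows printed above, TGACG began 49 bases before the start in CLK1 and 58 before in SRSF7, and the TATA box of SRSF7 27 before. A match of letters does not show that a factor binds there.

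The SR genes were the more abundant family. Because counts grow with transcript length, levels were compared between genes as CPM per kb of the canonical GENCODE transcript, averaged over the 12 libraries. SRSF5 was highest at 189 ± 8.34 CPM per kb (SD, n = 12), followed by SRSF2 at 138 ± 11.8, SRSF3 at 101 ± 5.29, SRSF1 at 71.3 ± 3.69, SRSF7 at 64.4 ± 7.97 and SRSF6 at 46.4 ± 3.78. Among the kinases, CLK1 was at 40.8 ± 7.02 CPM per kb, CLK3 at 23.6 ± 1.09 and CLK4 at 7.80 ± 1.14. The ranges of SRSF1 (66.1 to 77.2) and SRSF7 (53.3 to 74.2) overlapped, as did those of SRSF6 (40.4 to 52.7) and CLK1 (33.4 to 52.8), while the other neighbours in this order did not overlap. The order holds for the canonical transcript only, since shorter or longer isoforms would change the length used.

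CLK2, the remaining kinase of the family, was listed at 0 counts in 11 libraries and at 3 counts in sgControl SCF replicate 2. A count of 0 allowed at most 3 counts, or 0.0936 to 0.128 CPM depending on the library. Its neighbours SCAMP3 and HCN3 on chromosome 1 were also listed at 0 to 6 counts in every library, although FDPS (4640 to 6398 counts), RUSC1 (697 to 1012) and ASH1L (1663 to 2779) within 60 kb were counted. Whether the reads of CLK2 were assigned to another locus was not tested, and its level is not interpreted here.

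CLK1 (chr2:200853009-200864691, minus strand, hg38) phosphorylates SR proteins in the nucleus. It was at 70.8, 97.4 and 96.7 CPM in sgControl PBS and at 67.9, 69.8 and 80.0 CPM in sgControl SCF (replicates 1, 2 and 3). In sgEGR1 cells it was at 61.7, 87.0 and 81.8 CPM after PBS and at 63.4, 62.1 and 65.6 CPM after SCF. The groups overlapped through replicate 1, which was low after PBS with both guides, while replicates 2 and 3 were lower after SCF in every case. The log2 difference between SCF and PBS was −0.28 ± 0.13 (SE) in sgControl cells (edgeR adjusted p = 0.364) and −0.27 ± 0.13 in sgEGR1 cells (edgeR adjusted p = 0.378), and neither was called.

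CLK4 (chr5:178602664-178630615, minus strand), a close paralog of CLK1, had a similar profile at a lower level. It was at 18.5, 24.3 and 24.6 CPM in sgControl PBS and at 18.2, 18.6 and 20.2 CPM in sgControl SCF. It was at 18.7, 18.3 and 22.8 CPM in sgEGR1 PBS and at 17.9, 15.8 and 16.6 CPM in sgEGR1 SCF. The groups overlapped in sgControl cells, again through replicate 1, and did not overlap in sgEGR1 cells. The log2 difference was −0.24 ± 0.12 in sgControl cells (edgeR adjusted p = 0.385) and −0.25 ± 0.12 in sgEGR1 cells (edgeR adjusted p = 0.337). CLK4 shares exon sequence with RN7SKP70, a small RNA pseudogene on its own strand that held 11 to 30 counts.

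CLK3 (chr15:74598500-74645414, plus strand), a further kinase of SR proteins, showed little difference. Its 12 values lay between 40.3 and 46.7 CPM, and the log2 difference was 0.05 ± 0.06 in sgControl and 0.08 ± 0.06 in sgEGR1 cells. Its exons overlap those of EDC3 on the other strand, which held 1100 to 1715 counts, so its counts are uncertain.

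**Figure D1:**
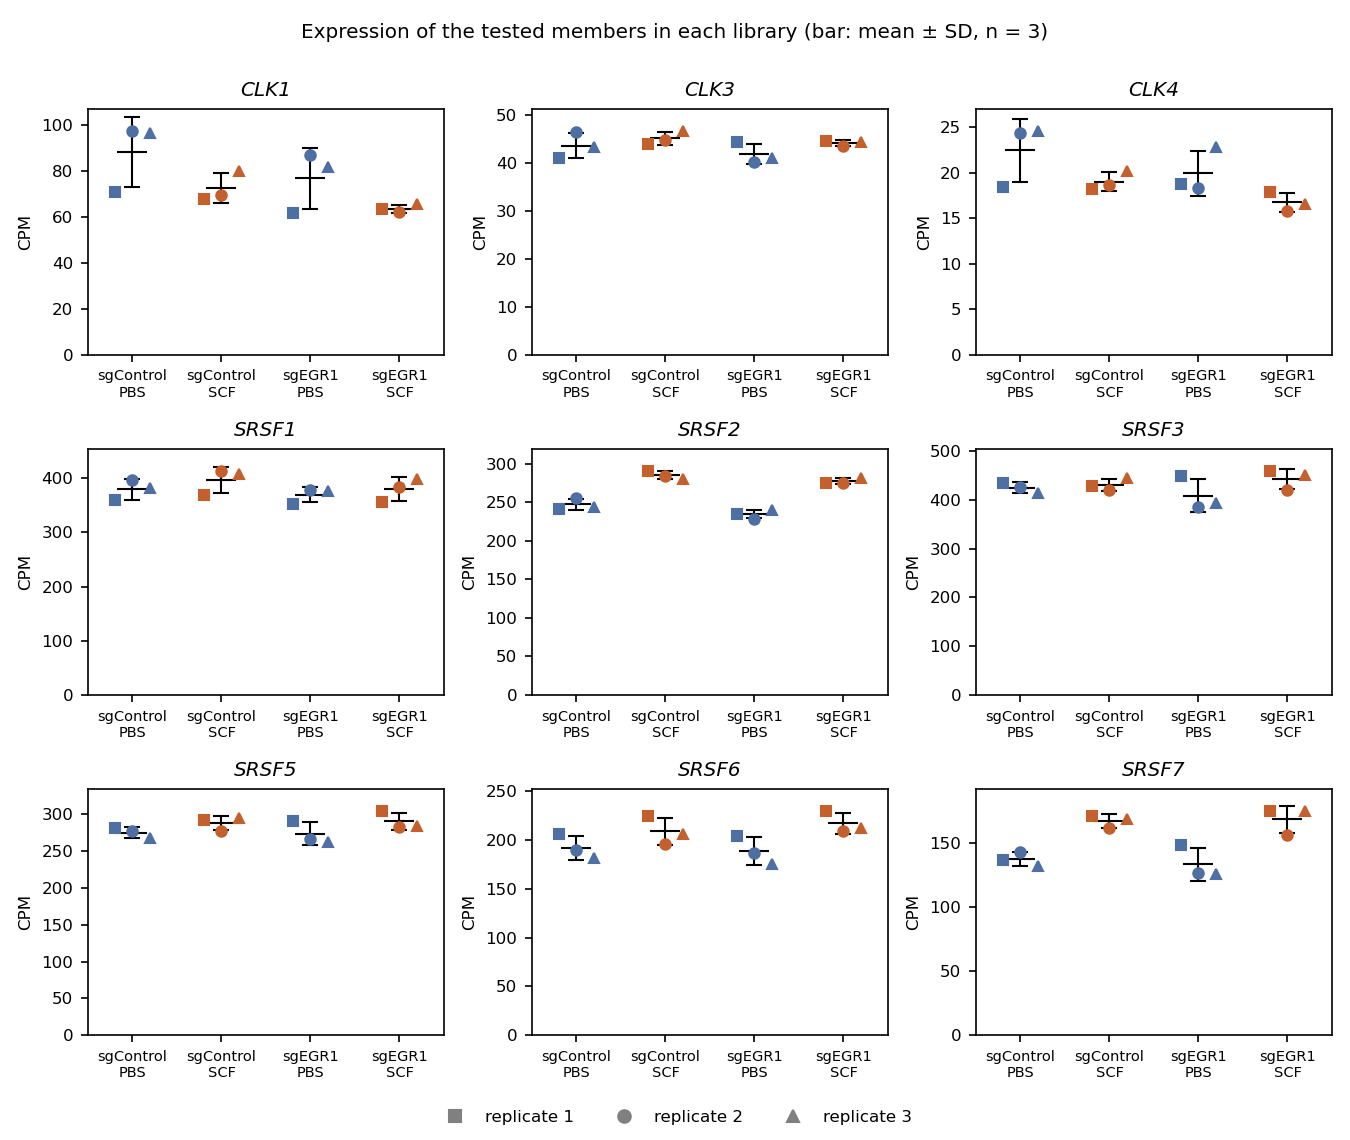
CPM (y axis, linear from 0) of the 9 tested members in each of the 12 libraries by group (x axis), with squares, circles and triangles for replicates 1, 2 and 3, blue for PBS, orange for SCF, and black bars for the group mean ± SD (n = 3). SRSF2 and SRSF7 are higher after SCF with both guides without overlap, whereas for CLK1 the replicate 1 squares after PBS sit at the level of the SCF libraries.

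SRSF7 (chr2:38743599-38751494, minus strand), an SR protein that also contributes to mRNA export, rose after SCF with both guides. It was at 137, 143 and 132 CPM in sgControl PBS and at 172, 161 and 169 CPM in sgControl SCF. In sgEGR1 cells it was at 148, 126 and 126 CPM after PBS and at 175, 156 and 175 CPM after SCF. Every SCF library was above every PBS library of its guide. The mean went from 137 ± 5.56 to 167 ± 5.17 CPM in sgControl cells (SD, n = 3) and from 133 ± 13.0 to 169 ± 10.6 CPM in sgEGR1 cells. This was 1.22-fold in sgControl cells (log2 0.28 ± 0.07 SE, edgeR adjusted p = 0.0478) and 1.26-fold in sgEGR1 cells (log2 0.34 ± 0.07, edgeR adjusted p = 0.0219). The sgControl call was close to the threshold and held in 9 of 20 alternative analyses. It was lost on leaving out any 1 of the 6 sgControl libraries (adjusted p 0.0840 to 0.180), and also sgEGR1 PBS replicate 2 (0.0612) or 3 (0.0582) or sgEGR1 SCF replicate 1 (0.0566) or 3 (0.0660), which enter through the shared spread. The sgEGR1 call held in 15 of 20, and was lost without sgEGR1 PBS replicate 2 (adjusted p = 0.102) or 3 (0.107) and without sgEGR1 SCF replicate 1 (0.0735) or 3 (0.0894).

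SRSF2 (chr17:76734115-76737333, minus strand), known for its role in exon recognition and as a gene recurrently mutated in myeloid neoplasms, also rose with both guides. It was at 242, 256 and 244 CPM in sgControl PBS and at 290.4, 285 and 280.2 CPM in sgControl SCF. In sgEGR1 cells it was at 235, 229 and 240.0 CPM after PBS and at 275, 275 and 282 CPM after SCF. The groups did not overlap, and the SD within a group was at most 7.61 CPM. The mean went from 247 to 285 CPM in sgControl cells (1.15-fold, log2 0.20 ± 0.04 SE, edgeR adjusted p = 0.0141) and from 235 to 278 CPM in sgEGR1 cells (1.18-fold, log2 0.24 ± 0.04, edgeR adjusted p = 0.0052). The sgEGR1 call held in 20 of 20 alternatives, and the sgControl call in 16 of 20. It was lost without sgControl PBS replicate 3 (edgeR adjusted p = 0.0665) or sgControl SCF replicate 1 (0.0533), with only the groups compared in the model (0.0975) and from replicates 2 and 3 only (0.0540). The exons of SRSF2 overlap those of MFSD11 on the other strand, which held 954 to 1479 counts, and although the study's methods describe strand-specific libraries, the sources do not say if counting used strand.

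SRSF6 (chr20:43457893-43466046, plus strand), another SR protein with paired RNA recognition motifs, was at 206, 189 and 181 CPM in sgControl PBS and at 224, 196 and 206 CPM in sgControl SCF. It was at 204, 187 and 176 CPM in sgEGR1 PBS and at 229, 209.6 and 212 CPM in sgEGR1 SCF. Each replicate number was higher after SCF than after PBS with the same guide, but the groups overlapped in sgControl cells and did not in sgEGR1 cells. The log2 difference was 0.12 ± 0.07 (edgeR adjusted p = 0.491) and 0.20 ± 0.07 (edgeR adjusted p = 0.178), so that SRSF6 was not called.

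The other 3 SR genes were not called with either guide. SRSF1 (chr17:58000919-58007346), the founding SR protein, lay between 353 and 413 CPM in all libraries, with log2 differences of 0.06 ± 0.06 and 0.04 ± 0.06 in sgControl and sgEGR1 cells. SRSF3 (chr6:36594353-36605600), the smallest SR protein, lay between 386 and 459 CPM, with 0.02 ± 0.06 and 0.12 ± 0.06. SRSF5 (chr14:69726900-69772005) lay between 263 and 304 CPM, with 0.07 ± 0.05 and 0.09 ± 0.05. The loci of SRSF1 and SRSF6 are overlapped in exons by further annotated genes on the same strand, which makes their counts uncertain.

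**Figure D2:**
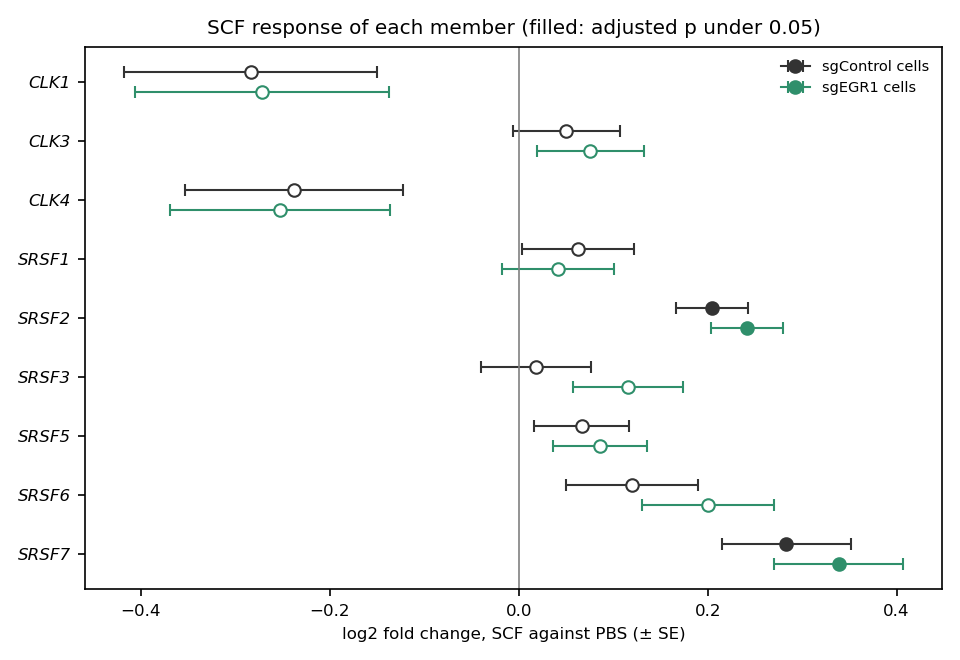
Log2 fold change of SCF against PBS (x axis, ± SE) for each tested member (y axis) in sgControl cells (black) and sgEGR1 cells (green), with filled circles at an edgeR adjusted p under 0.05. The filled points are SRSF2 and SRSF7 with both guides, the 6 SR genes lie above 0, and CLK1 and CLK4 lie below 0 without being called.

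In sgControl cells 2 of the 9 tested members were called, both higher, against 2.89% of all genes tested. In sgEGR1 cells the same members, SRSF2 and SRSF7, were called, against 2.59% of all genes. The groups did not overlap for 2 of 9 members in sgControl cells, beside 19.6% of all genes, and for 4 of 9 in sgEGR1 cells (SRSF2, SRSF6 and SRSF7 higher, CLK4 lower), beside 21.2%. The 6 SR genes among the members all had a log2 difference above 0 with both guides, with medians of 0.09 and 0.16, where 48.2% and 49.8% of all genes were above 0 and the medians of all genes were −0.01 and −0.00048. The sign of SRSF3 in sgControl cells turned to −0.0038 without sgControl SCF replicate 3.

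Averaged over both guides, which sets 6 libraries against 6, SCF was followed by higher SRSF7 (log2 0.31 ± 0.05 SE, edgeR adjusted p = 0.00182) and SRSF2 (log2 0.22 ± 0.03, edgeR adjusted p = 0.000315). These were 2 of 9 members, against 9.03% of all genes, and both calls held in 19 of 19 alternatives, including the one without sgEGR1 SCF replicate 3. SRSF6 (log2 0.16 ± 0.05, edgeR adjusted p = 0.0657), CLK4 (−0.25 ± 0.08, adjusted p = 0.0900) and CLK1 (−0.28 ± 0.09, adjusted p = 0.0965) missed the threshold. These 3 were called without sgControl PBS replicate 1, at adjusted p values of 0.0376, 0.0181 and 0.0218. Without sgEGR1 PBS replicate 1, SRSF6 (0.0312) and CLK1 (0.0245) were called.

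Replicate 1 differed from replicates 2 and 3 in several members. When a term for replicate 1 was added to the 4 group means, it was called for 4 of 9 members, against 26.6% of all genes. CLK1 was lower in replicate 1 (log2 −0.26 ± 0.07 SE, edgeR adjusted p = 0.0102), as was SRSF1 (−0.13 ± 0.02, adjusted p = 0.00134), whereas SRSF6 (0.15 ± 0.03, adjusted p = 0.000947) and SRSF5 (0.08 ± 0.03, adjusted p = 0.0377) were higher. Without sgControl PBS replicate 1, or without sgEGR1 PBS replicate 1, only SRSF1 and SRSF6 of these were called. SRSF5 kept its call only in the fits without sgControl PBS replicate 2 or sgControl SCF replicate 3, of 12 that left out 1 library. No label gives a batch or day for a replicate number, and what set replicate 1 apart was not tested.

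With that term in the model, the SCF response was called for SRSF2, SRSF6 and SRSF7 with each guide, 3 of 9 members, against 8.32% of all genes in sgControl cells and 8.56% in sgEGR1 cells. The SRSF6 call in sgControl cells was at the threshold (edgeR adjusted p = 0.0498), and only this 1 of 20 alternatives made it. For the average over both guides 6 of 9 members were called, against 18.5% of all genes. To SRSF2, SRSF6 and SRSF7 this added CLK1 (log2 −0.27, edgeR adjusted p = 0.00835), CLK4 (−0.24, adjusted p = 0.0347) and SRSF5 (adjusted p = 0.0461). Only this 1 of 19 alternatives called SRSF5. From replicates 2 and 3 alone, CLK1 fell with each guide. On the log2 scale it fell by 0.37 with sgControl (edgeR adjusted p = 0.0137), and it fell by 0.40 with sgEGR1 (edgeR adjusted p = 0.00878). In those libraries 2 members were called in sgControl cells (CLK1 and SRSF7) against 3.71% of all genes, and 4 in sgEGR1 cells (CLK1, SRSF2, SRSF6 and SRSF7) against 4.45%. Averaged over guides 5 were called (CLK1, CLK4, SRSF2, SRSF6 and SRSF7) against 11.3%. The fits with the replicate 1 term and those from replicates 2 and 3 all keep sgEGR1 SCF replicate 3, in which EGR1 was at the sgControl level.

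The CLK1 mean of replicates 2 and 3 went from 97.1 to 74.9 CPM in sgControl cells and from 84.4 to 63.8 CPM in sgEGR1 cells, changes of −22.9% and −24.4%. In replicate 1 the changes were −4.21% and 2.81%. CLK4 changed by −20.6% and −21.2% in replicates 2 and 3 and by −1.24% and −4.58% in replicate 1. A test of this difference, added after these values were seen, gave a log2 difference of 0.38 ± 0.08 (SE) for CLK1 (edgeR adjusted p = 0.486) and 0.30 ± 0.14 for CLK4 (edgeR adjusted p = 1). Neither was called, nor was any other member. It was called for 2 of all genes tested, or 0.0129%. SRSF2 and SRSF7 rose by 12.9% to 31.5% in both sets of replicates.

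**Figure D3:**
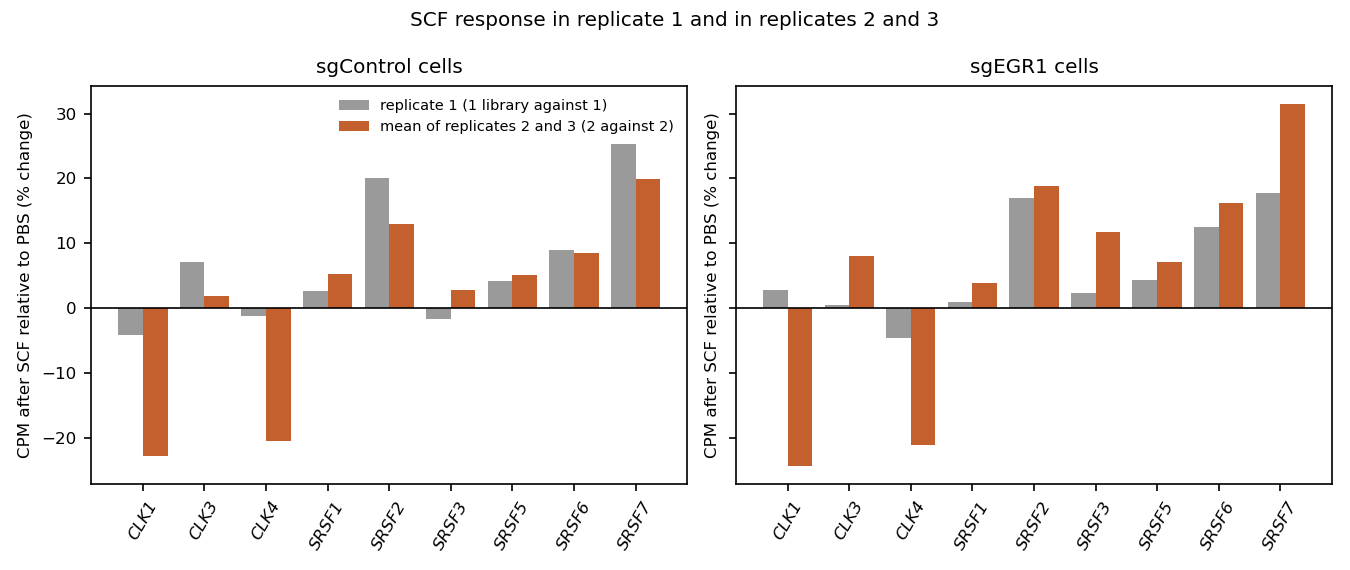
Change in CPM after SCF relative to PBS in percent (y axis) for each tested member (x axis), from replicate 1 alone (grey, 1 library against 1) and from the means of replicates 2 and 3 (orange, 2 against 2), in sgControl (left) and sgEGR1 cells (right), with no error bars. CLK1 and CLK4 are lower by 20.6% to 24.4% in replicates 2 and 3 while their replicate 1 changes run from −4.58% to 2.81%.

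Deviations from the group means were compared between members over the 12 libraries, as a description of points that share library and depth. SRSF3 and SRSF7 had a Pearson r of 0.917, SRSF3 and SRSF5 of 0.871, and SRSF5 and SRSF6 of 0.871. CLK1 and CLK4 had 0.676. SRSF1 ran opposite to SRSF6 (−0.846), and CLK1 opposite to SRSF6 (−0.678), the direction in which replicate 1 also differed. Among 9862 genes averaging at least 5 CPM, the levels most like those of CLK1 over the 12 libraries were CYBRD1 (r = 0.971) and another SR gene, SRSF11 (r = 0.937). The most alike were YRDC (0.967) and ING2 (0.965) for SRSF2, and KLHL2 (0.958) and FEN1 (0.957) for SRSF7.

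The guide was compared within each treatment to ask what targeting the EGR1 element changed. After PBS, 0 of 9 members were called, against 0.0% of all genes. All 9 differences between sgEGR1 and sgControl were below 0, from −0.20 ± 0.13 (SE) in CLK1 to −0.01 ± 0.05 in SRSF5 on the log2 scale, where 50.2% of all genes were above 0. In a fit blocked by replicate number, which pairs the guides, these were −0.20 ± 0.09 and −0.01 ± 0.04, and no member was called. SRSF2 was at 242 to 256 CPM in sgControl PBS and at 229 to 240.0 CPM in sgEGR1 PBS, the only 1 of 9 members without overlap, beside 9.31% of all genes. After SCF, 0 of 9 members were called, against 0.0% of all genes, and the differences ran from −0.19 ± 0.13 in CLK1 to 0.06 ± 0.07 in SRSF6. CLK1 was at 67.9 to 80.0 CPM in sgControl SCF and at 62.1 to 65.6 CPM in sgEGR1 SCF, without overlap. CLK4 was at 18.2 to 20.2 and 15.8 to 17.9 CPM, also without overlap. These were 2 of 9 members, beside 7.14% of all genes, and the exact permutation p was 0.1, the smallest possible, for each of these 3 non-overlapping differences. Without sgEGR1 SCF replicate 3, the differences after SCF were −0.21 ± 0.16 in CLK1 and −0.18 ± 0.14 in CLK4, and 0 members were called. Between same-numbered libraries, CLK1 and SRSF1 were lower in sgEGR1 in 6 of 6 pairs over both treatments, CLK4 and SRSF2 in 5 of 6, CLK3 in 4 of 6 and the other members in 3 of 6. A gene was lower in all 6 pairs in 2.79% of all genes tested, and this count was added after the values were seen. In these comparisons edgeR gave 715 and 361 genes at an unadjusted p under 0.05, with 0 members among them, and DESeq2 called 20 and 5 genes, also with 0 members. EGR1, the gene targeted, was itself not called after PBS (log2 −2.59 ± 0.80 SE, edgeR adjusted p = 0.999) or after SCF (−1.03 ± 0.45, with sgEGR1 SCF replicate 3 included). In each of these comparisons 1 of 20 alternatives called EGR1. The absence of member calls between guides therefore does not show that the members were unchanged.

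Whether SCF acted differently with the guides was tested as an interaction (sgEGR1 response less sgControl response), which was called for 0 of 9 members, against 0.0% of all genes. It reached an unadjusted p under 0.05 in 306 genes with 0 members, and DESeq2 called 4 genes with 0 members. For SRSF2 it was 0.04 ± 0.05 (SE) on the log2 scale, for SRSF7 0.06 ± 0.10, and for CLK1 0.01 ± 0.19. The highest of the members was SRSF3 at 0.10 ± 0.08. EGR1 itself was at 1.56 ± 0.95 and was not called. From replicates 2 and 3 only, which keep sgEGR1 SCF replicate 3, the CLK1 interaction was −0.031 ± 0.09. Without sgEGR1 SCF replicate 3, the library in which EGR1 was at the sgControl level, it was 0.03 ± 0.06 for SRSF2, 0.03 ± 0.10 for SRSF7 and −0.0093 ± 0.21 for CLK1, and 0 members were called.

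Other genes of the splicing pathway were taken from 6 lists of 93 genes, of which 92 were tested (all but SRSF12). In sgControl cells 4 were called higher and 0 lower, in sgEGR1 cells 4 higher and 1 lower, and in the average over guides 10 higher and 4 lower. These counts stand beside the same 2.89%, 2.59% and 9.03% of all genes. Between guides and for the interaction 0 were called by edgeR, and likewise 0 between guides by DESeq2.

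Among the other SR and TRA2 genes, 2 of 7 tested were called for the average SCF response, both higher. They were TRA2B, a splicing activator related to SR proteins (log2 0.19 ± 0.03 SE, edgeR adjusted p = 0.00186), and SRSF8 (0.13 ± 0.04, adjusted p = 0.0393). Of the rest, SRSF9 (0.098) and TRA2A (0.088) were above 0, and SRSF4 (−0.0071), SRSF10 (−0.026) and SRSF11 (−0.089) below. SRSF11 was called lower with DESeq2, with a replicate block and with a replicate 1 term. Of 12 kinases that phosphorylate SR proteins or are kin of the CLK family, 2 rose. DYRK2 went from a mean of 23.6 to 31.8 CPM (log2 0.43 ± 0.07, edgeR adjusted p = 0.00218) and was called with both guides. HIPK3 rose by 0.18 ± 0.04 (adjusted p = 0.0207) and was called with sgControl but not with sgEGR1. None of the 3 SRPK kinases was called.

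Of 24 RS-domain and speckle genes, CCNL1, a cyclin of nuclear speckles, rose with both guides and on average (log2 0.24 ± 0.03 SE, edgeR adjusted p = 0.000166). CLASRP, a CLK-associated RS-domain protein, fell by 0.19 (adjusted p = 0.0134), and LUC7L, a U1 snRNP-associated factor, fell by 0.17 (adjusted p = 0.0226). Of 24 hnRNP genes, which bind pre-mRNA and often oppose SR proteins, HNRNPAB (0.28 ± 0.05, adjusted p = 0.00369) and HNRNPA0 (0.16 ± 0.03, adjusted p = 0.00516) rose. Of 15 core factors, SF3B4 of the U2 snRNP (0.18 ± 0.04, adjusted p = 0.00814) and U2AF2, which binds the polypyrimidine tract (0.12 ± 0.03, adjusted p = 0.0411), rose. Of 10 genes of nonsense-mediated decay, which removes transcripts with poison exons, SMG8 rose (0.25 ± 0.05, adjusted p = 0.00618), and the helicase UPF1 (−0.22 ± 0.04, adjusted p = 0.00209) and SMG9 (−0.25 ± 0.06, adjusted p = 0.0149) fell.

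**Figure D4:**
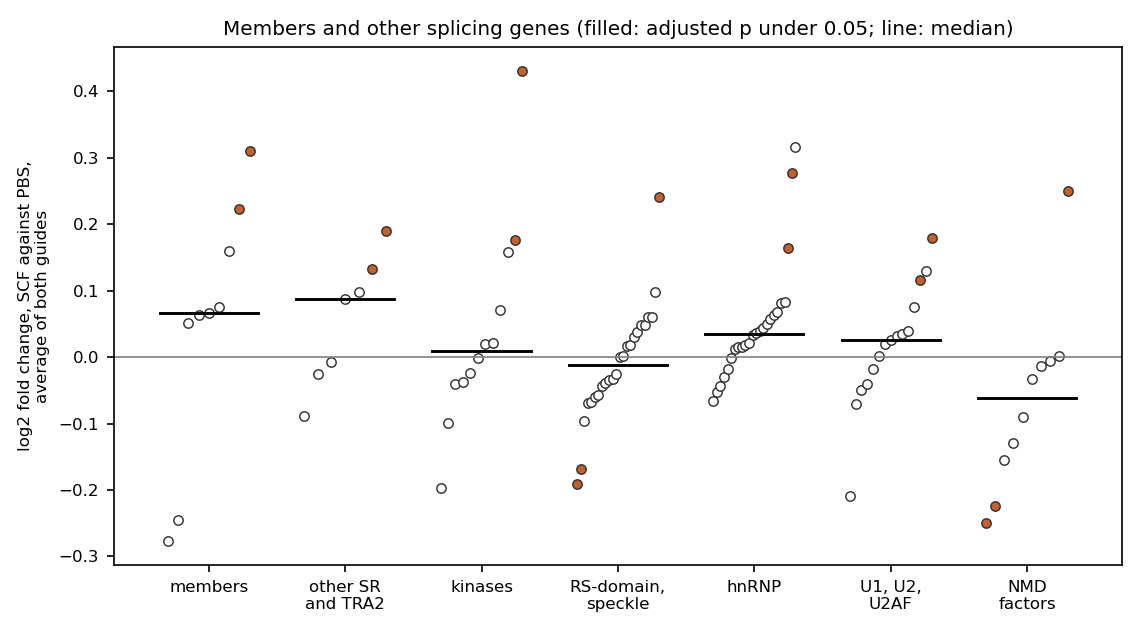
Average SCF response over both guides (y axis, log2 fold change of SCF against PBS) of the 9 tested members and of the 92 tested genes in 6 lists of other splicing genes (x axis), each circle 1 gene, filled at an edgeR adjusted p under 0.05, with a line at each median. The filled circles are 2 members and, among the lists, 10 genes above and 4 below 0, the latter in the speckle and NMD (nonsense-mediated decay) lists.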

How the data were processed

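RNA-seq was measured in 12 libraries, grouped by the labels. The column code for the targeted construct was assigned to sgEGR1, the only construct besides the scrambled control, and 0 columns were left unmapped. The values are estimated counts that the authors deposited, made with StringTie from HISAT alignments to hg38 and unscaled for depth or length. All values were whole, and 0 rows lacked a gene name. The annotation release, the handling of multi-mapped reads and the use of strand in counting were not stated. The library kit differs between labels and methods. Estimated counts were filtered (filterByExpr), scaled by TMM and tested with edgeR 4.0.16 in R 4.3.3, all 12 libraries in 1 model with 1 coefficient per group, and checked on simulated data. DESeq2 1.42.0, other scalings, no filter, only the groups compared, a replicate block, a replicate 1 term, replicates 2 and 3 only, and leaving out each library were alternatives. Totals were 23.5 to 32.0 megacounts, replicate pairs gave a chi-square per degree of freedom of 4.40 to 21.1, where 1 would be sampling noise, and floors (3 counts) cover counting error only. Coordinates are from GENCODE release 44. The methods call the replicates biological, but the labels do not name separate cultures, so p-values measure the spread between these libraries.

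The 10 members, the splicing lists and the cell type markers were chosen with earlier results of these data known. All members are named, and in the lists those genes that were called, with EGR1 as the check of the guide. Same-numbered libraries of the 2 guides deviated from their group means together (with PBS r was 0.232, 0.103 and 0.119 for the replicate numbers in order, with SCF 0.269, 0.102 and 0.126), so the numbers were taken to pair the guides. Between SCF and PBS such r was 0.272, 0.0080 and 0.108 in sgControl and 0.230, 0.075 and 0.062 in sgEGR1 cells. Replicate 1 was thus as alike between treatments as between guides. Because the lowest values lay below those between guides, the numbers were not taken to pair treatments. With the replicate number as a block, more of all genes were called for SCF, 1184 against 448 in sgControl and 1235 against 402 in sgEGR1 cells.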

Additional observations from a re-analysis of the deposited data

How the results depend on the processing

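SRSF2 and SRSF7 stayed above 0 after SCF in every alternative run. In sgControl cells 2 members were called. This count was 1 with upper quartile scaling and 1 with only the groups compared in the model, and 0 to 2 on leaving out 1 library at a time. In sgEGR1 cells it was 1 with only the groups compared, 4 from replicates 2 and 3 only, and 1 to 2 on leaving out 1 library. For the average response it was 4 with DESeq2, 5 with a replicate block, 6 with a replicate 1 term, 5 from replicates 2 and 3 only, and 2 to 5 on leaving out 1 library. The replicate 1 term itself was called for 2 to 4 members on leaving out 1 library. With the replicate number as a block, the SCF response was called for 2 members in sgControl and 3 in sgEGR1 cells, and the guide and the interaction for 0, so that the block changed no call between guides. The CLK1 interaction was −0.031 from replicates 2 and 3 only and −0.12 to 0.15 on leaving out 1 library, and SRSF3 in sgControl cells ran from −0.0038 to 0.039. The cause of these changes was not tested. For the splicing lists, the counts called higher and lower were 9 and 4 in sgControl, 7 and 4 in sgEGR1 cells and 14 and 10 on average with the replicate 1 term, and 7 and 2, 6 and 3, and 10 and 6 with DESeq2. The tested members held at least 440 counts in every library, so that the number of libraries, 3 per group, is the closer limit on precision.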
